A study of Homo sapiens with 6 samples.

Results

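The HOX genes were examined in 786-0 cells, a human line established from a clear cell renal cell carcinoma, after treatment with decitabine. The set holds every protein-coding gene whose symbol is HOX, then A, B, C or D, then a number from 1 to 13, and it was chosen by name and not by any measured value. There were 39 such genes among the 58381 genes in the count files, with 11 in the HOXA cluster, 10 in HOXB, 9 in HOXC and 9 in HOXD. Polyadenylated RNA was sequenced in 6 libraries, 2 from cells given DMSO, 2 from cells given 100 nM decitabine and 2 from cells given 300 nM decitabine. Treatment was daily for 3 days, the medium was renewed on day 4 and the cells were taken on day 5. All 6 libraries, the DMSO libraries included, carry the genotype SETD2 KO, so no library with intact SETD2 stands beside them, and the labels do not say whether the knockout is 1 clone. The labels also leave unsaid whether a group's 2 libraries are separate cultures, and the p-values therefore measure the spread between libraries alone, which may be technical. SETD2 trimethylates lysine 36 of histone H3 in transcribed genes. Decitabine, a nucleoside drug, enters DNA in place of deoxycytidine and traps DNA methyltransferases, so that DNA methylation is lost as cells divide.

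HOX genes encode homeodomain transcription factors that give cells their position along the body axis. Within a cluster the genes lie in the order of their numbers, and low numbers are used towards the head (anterior) and early, while high numbers are used towards the tail (posterior) and late. Genes with the same number in different clusters are paralogues with related functions. Polycomb proteins keep HOX genes off and trithorax proteins keep them on, and retinoic acid is a classical inducer of the low-numbered genes. Kidney development depends on HOX genes, the paralogues numbered 11 in particular, and many HOX genes stay expressed in the adult organ and in its tumours.

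On GRCh38, the build whose coordinates the count files carry, HOXB spans chr17:48528526-48729178, HOXC chr12:53938765-54056030 and HOXD chr2:176092891-176190907, and HOXA lies on chromosome 7. The libraries held 89159112 to 96646427 reads assigned to genes, and 38537 to 51893 of them fell on HOX genes. Levels are given as CPM, read counts scaled to a common library total after TMM scaling, which sets the bulk of genes level between libraries, and levels of different genes are compared only per kilobase of exons. A level of 3 reads, the limit that a count of 0 allows, equals 0.0306 to 0.0362 CPM in a library. As a check of the label, 10 of 11 markers of kidney tubule or clear cell carcinoma, PAX8, PAX2 and EPAS1 among them, reached 1 CPM, while CA9 had 0 reads with DMSO. Of 3 leukocyte markers, 0 reached a mean of 1 CPM, and their sum was 0.553 to 0.572 CPM with DMSO, 0.683 to 0.877 at 100 nM and 0.982 to 1.196 at 300 nM, with the defining marker PTPRC at 0 to 0.106 CPM. Summed endothelial markers stood at 0.915 to 1.24, 1.39 to 1.45 and 3.08 to 3.41 CPM, with CDH5 at no more than 0.211 CPM and PECAM1 at 9 and 13 reads, then 77 and 74, then 108 and 136. Their part in the HOX results was not tested. In such bulk RNA, fewer cells that express a gene and less RNA per cell cannot be told apart.

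Most HOX genes were transcribed, and high levels were found in every stretch of the gene order. With DMSO the highest levels per kilobase were 20.9 CPM for HOXA9, 19.7 for HOXB7, 19.5 for HOXB9, 15.998 for HOXA3, 12.7 for HOXD10, 12.1 for HOXD9 and 10.7 for HOXB2. At the other end, HOXB1, HOXC12 and HOXD13 had 0 reads over both DMSO libraries and HOXB13 had 2. The HOXC cluster was the weakest, and within it HOXC5, HOXC11, HOXC12 and HOXC13 stayed at or below 0.139 CPM per kilobase in every group mean. HOXB1, HOXC12 and HOXC13 were too low to be tested, which left 36 genes.

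**Figure D1:**
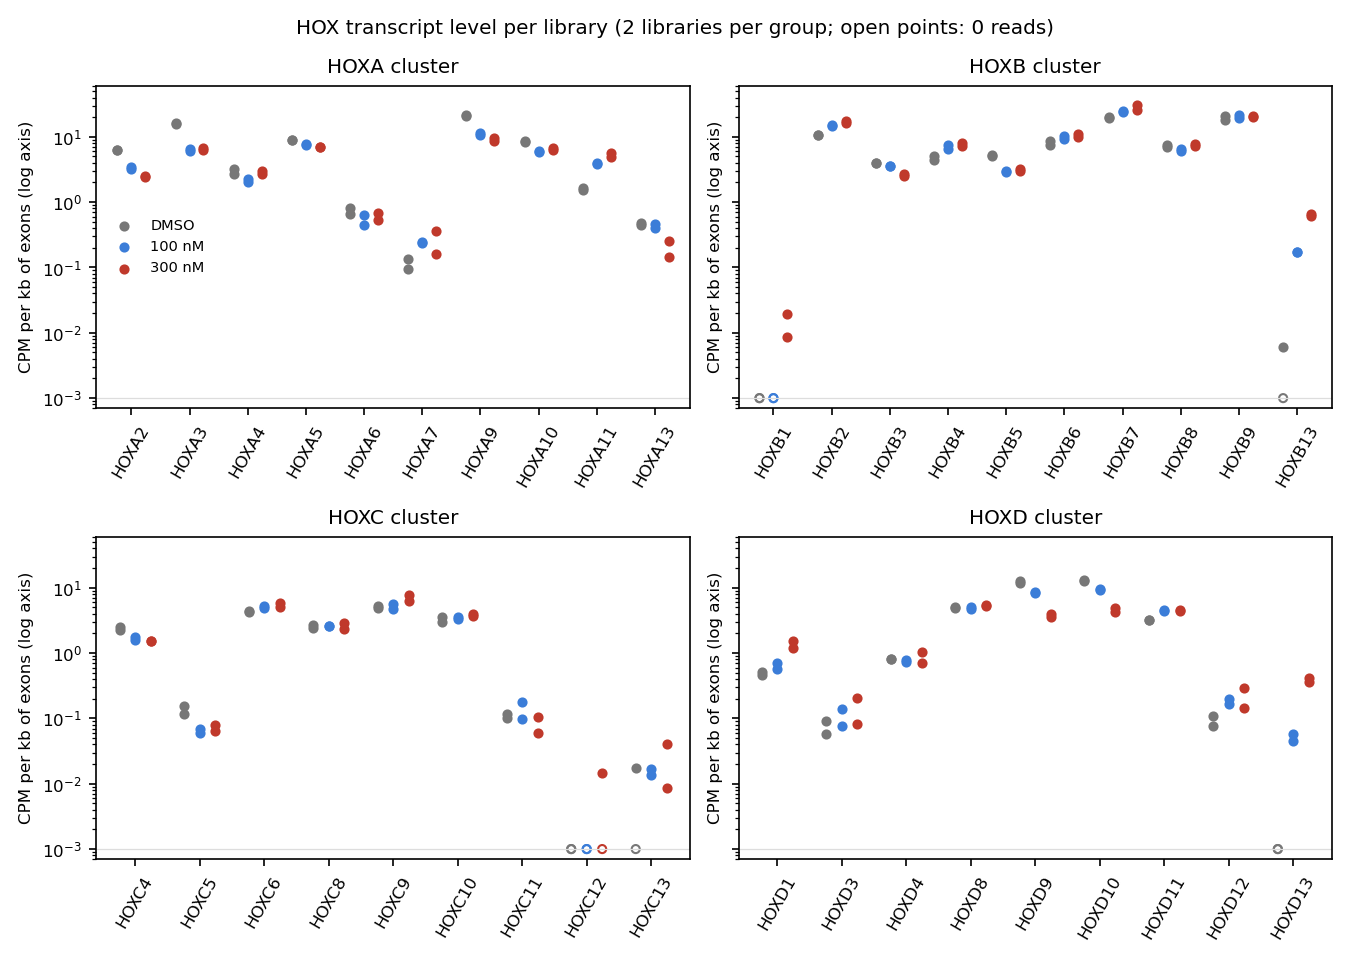
Level of the HOX genes shown in each library, in CPM per kilobase of exons on a log axis, by cluster and from low to high gene number, with DMSO in grey, 100 nM in blue and 300 nM in red. Open points at the bottom line stand for 0 reads. HOXA9, HOXB7 and HOXB9 are the highest genes with DMSO, and HOXB13 and HOXD13 appear only from 100 nM on apart from 2 HOXB13 reads with DMSO.

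Decitabine changed single HOX genes in both directions while the median of the family stayed near 0 where no offset was used. A gene was called changed when its adjusted p from edgeR's quasi-likelihood test, over all 23160 genes tested, was under 0.05. At 100 nM against DMSO, 6 of the 36 HOX genes were higher (16.7%) and 9 lower (25.0%), while 42.7% of all genes tested were called, 24.0% higher and 18.7% lower. At 300 nM against DMSO, 12 were higher (33.3%) and 11 lower (30.6%), beside 65.9% of all genes called, 34.8% higher and 31.1% lower. Between the doses, 5 HOX genes were higher and 5 lower at 300 nM (13.9% each), beside 43.4% of all genes called, 20.0% higher and 23.4% lower. Without an offset, the shares of HOX genes called were thus near the background in the comparisons with DMSO and below it between the doses. Both comparisons with DMSO use the same DMSO libraries, so they are not independent of each other.

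Without an offset, the median size of the change was smaller for the HOX genes than for all genes. The median log2 change of the HOX genes was 0.04 at 100 nM and 0.07 at 300 nM, against 0.03 and 0.05 over all genes. Their median absolute log2 change was 0.46 and 0.62, against 0.52 and 0.92 over all genes, and between the doses it was 0.21 against 0.53. Counting only changes of at least 2-fold, 3 of the 36 HOX genes were higher and 1 lower at 100 nM, beside 15.9% and 5.66% of all genes. At 300 nM 5 and 6 were, beside 21.5% and 20.0%, and between the doses 3 and 3, beside 5.99% and 10.8%. HOXB13 and HOXD13 entered the test only through their treated libraries and so had to be higher there. Without them 4 genes were higher and 9 lower at 100 nM, 10 and 11 at 300 nM, and 3 and 5 between the doses, of 34 tested.

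The split between rises and falls depended on how transcript length and GC content were handled. HOX transcripts are short and GC-rich, with a median exon length of 2423 bases and a median GC content of 55.3%, against 4849.5 bases and 49.25% for the 15386 protein-coding genes tested. With an offset for exon length, 4 HOX genes were higher and 13 lower at 100 nM and 5 and 18 at 300 nM. Over all 23160 genes tested, that offset gave 5743 higher and 4852 lower at 100 nM and 7567 and 8013 at 300 nM. With an offset for length and GC content the counts were 4 and 19 at 100 nM, 3 and 26 at 300 nM, and 2 and 20 between the doses. Over all 23160 genes they were 6405 and 5531, 7003 and 8524, and 3290 and 5931. In each comparison a larger share of HOX genes than of all genes was then called lower. The HOX median at 300 nM moved from 0.07 to -0.85 while that of all genes moved from 0.05 to -0.14. Under this offset HOXB2, HOXB6, HOXB7, HOXC6, HOXC9 and HOXD11, all higher at 300 nM without an offset, were called lower, and the offset value of HOXB4 was -0.10. Apart from the threshold of at least 2-fold, the calls that held under every alternative in which the gene was tested were HOXA11, HOXB13 and HOXD13 higher at both doses, HOXA2, HOXA3, HOXA9 and HOXB5 lower at both doses, HOXA10 lower at 100 nM, and HOXA13, HOXC4, HOXD9 and HOXD10 lower at 300 nM. HOXD13 at 100 nM was too low to be tested in the fit of only the 2 groups compared. With 0 to 2 reads in each DMSO library, HOXB13 and HOXD13 could not be called lower under any alternative, so their place in this set was no test of their direction. Of the lower calls in this set, only HOXA3 at 100 nM, and HOXA2, HOXA3, HOXA9, HOXA13, HOXD9 and HOXD10 at 300 nM, were also at least 2-fold. With the length and GC offset the 300 nM log2 changes were -2.26 for HOXA2, -2.06 for HOXA3, -1.60 for HOXA9, -0.75 for HOXA13, -1.81 for HOXB5, -1.25 for HOXC4, -2.91 for HOXD9 and -1.95 for HOXD10, so that HOXA13 moved towards 0 and the other 7 away from it. HOXA11 went from 1.71 to 0.67. Which scaling is the better one for this family was not tested.

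**Figure D2:**
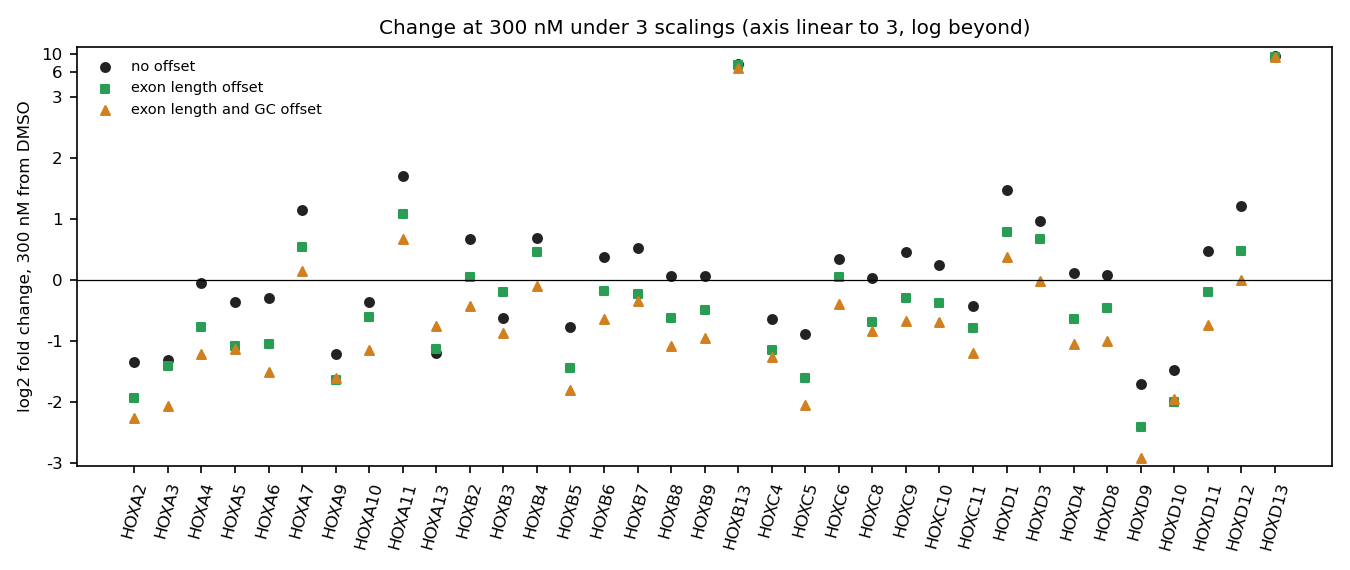
Log2 change of the HOX genes shown at 300 nM against DMSO without an offset (black), with an exon length offset (green) and with a length and GC offset (orange), on an axis that is linear to 3 and logarithmic beyond. HOXA11, HOXB13 and HOXD13 stay above 0 and HOXA2, HOXA3, HOXA9, HOXD9 and HOXD10 below 0 under all 3, while HOXB2, HOXB7 and HOXC9 cross 0. The side of HOXB13 and HOXD13 was fixed, as they entered the test only through treated libraries.

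Summed over its genes without an offset, HOXA stood lower and HOXB higher after treatment. The HOXA sum was 69.7 and 68.6 CPM per kilobase in the DMSO libraries, 44.2 and 45.1 at 100 nM, then 43.4 and 44.2 at 300 nM, with HOXA9 as the largest contributor throughout. The HOXB sum was 81.7 and 76.6, then 89.96 and 88.4, then 102.2 and 93.5 CPM per kilobase, led by HOXB7. The treated libraries thus lay apart from the DMSO libraries in both clusters, below them in HOXA and above them in HOXB, and the 100 nM libraries already stood at the lower HOXA level. For HOXC the sums were 17.2 and 18.3, 19.2 and 17.4, and 22.0 and 19.0 CPM per kilobase, so that the 100 nM libraries overlapped those with DMSO. HOXD went from 33.6 and 35.4 to 28.3 and 29.6 and then to 20.2 and 21.9 CPM per kilobase, with no overlap between the groups, and its leading gene changed from HOXD10 to HOXD8 at 300 nM. These sums were not tested, and they rest on a few abundant genes. The direction of HOXB depends on the scaling, as the median log2 change of its genes at 300 nM was 0.37 without an offset and -0.64 with the length and GC offset.

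**Figure D3:**
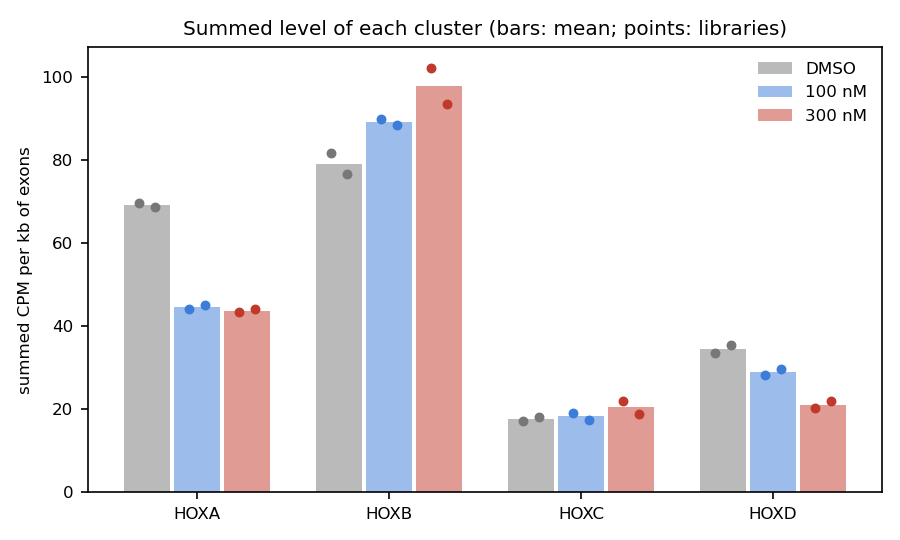
Summed CPM per kilobase of the genes of each cluster, with the group mean as a bar and each of the 2 libraries as a point. HOXA went from a mean of 69.2 to 43.8 and HOXD from 34.5 to 21.1 at 300 nM, and HOXB went from 79.2 to 97.8.

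Promoter sequences are shown for 2 genes that rose and 2 that fell, since decitabine acts on DNA methylation at CpG dinucleotides and HOX promoters differ widely in how many they hold. The windows come from RefSeq on GRCh38.p14 and run from 250 bases before to 50 bases after an annotated start, 5′ to 3′ on the gene's strand, with each CG in capitals. HOXD13 is chr2:176092471-176092770 on the plus strand, HOXD10 chr2:176116528-176116827 on the plus strand, HOXA11 chr7:27185183-27185482 on the minus strand and HOXA2 chr7:27102634-27102933 on the minus strand.
HOXD13: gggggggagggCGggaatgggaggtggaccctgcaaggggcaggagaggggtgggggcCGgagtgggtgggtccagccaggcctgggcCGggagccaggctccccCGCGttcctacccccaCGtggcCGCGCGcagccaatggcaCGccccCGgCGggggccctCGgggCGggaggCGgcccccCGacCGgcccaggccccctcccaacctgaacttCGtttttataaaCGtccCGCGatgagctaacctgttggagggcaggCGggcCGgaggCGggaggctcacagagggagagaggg
HOXA11: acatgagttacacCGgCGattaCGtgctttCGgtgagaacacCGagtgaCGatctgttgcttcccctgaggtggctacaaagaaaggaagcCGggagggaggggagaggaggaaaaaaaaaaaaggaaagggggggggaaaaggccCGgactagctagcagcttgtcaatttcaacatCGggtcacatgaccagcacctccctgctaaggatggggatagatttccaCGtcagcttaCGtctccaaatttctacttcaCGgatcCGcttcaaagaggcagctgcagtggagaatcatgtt
HOXD10: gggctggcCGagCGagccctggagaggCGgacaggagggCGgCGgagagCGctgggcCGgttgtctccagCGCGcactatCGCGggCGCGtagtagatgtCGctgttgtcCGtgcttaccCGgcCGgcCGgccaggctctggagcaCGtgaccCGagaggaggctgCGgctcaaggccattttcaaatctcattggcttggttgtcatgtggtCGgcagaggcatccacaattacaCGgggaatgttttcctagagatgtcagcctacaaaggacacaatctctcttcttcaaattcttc
HOXA2: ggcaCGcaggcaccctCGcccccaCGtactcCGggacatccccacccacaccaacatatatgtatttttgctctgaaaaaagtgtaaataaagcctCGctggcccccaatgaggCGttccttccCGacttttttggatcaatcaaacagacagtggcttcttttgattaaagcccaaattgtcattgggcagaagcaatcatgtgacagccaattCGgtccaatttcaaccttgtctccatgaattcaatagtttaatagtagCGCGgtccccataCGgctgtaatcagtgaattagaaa
The rising pair held 24 CG (HOXD13) and 13 (HOXA11), the falling pair 23 (HOXD10) and 11 (HOXA2), so the counts of both pairs covered much the same range. At least as many CG as in HOXD13 were found in 33.9% of all windows in the table, and as in HOXA2 in 54.7%. Windows were matched for 20 of the 39 genes, some with several starts, and held a median of 22 CG, from 0 to 44, against a median of 14 over all windows. The letters TGATNNAT, which contain a motif bound by HOX proteins together with PBX partners, were searched on both strands. They occurred in 11.1% of HOX windows (HOXA2, HOXB1 and HOXD11) and in 7.40% of all windows. Methylation was not measured in these libraries.

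In HOXA, 1 gene was higher and 5 lower of 11 at 100 nM (9.09% and 45.5%, beside 24.0% and 18.7% of all genes). At 300 nM 2 were higher and 6 lower (18.2% and 54.5%, beside 34.8% and 31.1%). The falls lay in the anterior pair HOXA2 and HOXA3, in HOXA5 and in the posterior genes HOXA9, HOXA10 and HOXA13. HOXA11, between HOXA10 and HOXA13, rose. With the length and GC offset HOXA4 and HOXA6 were also called lower at 300 nM, and HOXA7 was not called. HOXA3, which patterns the pharyngeal arches that give rise to thymus and parathyroid, had libraries of 69.9 and 67.9 CPM in DMSO-treated cells, 25.8 and 27.97 at 100 nM and 26.6 and 28.9 at 300 nM. All 4 treated libraries were at well under the DMSO level and the doses overlapped each other. The log2 change was -1.36 (SE 0.12, edgeR adjusted p = 5.13e-08) at 100 nM and -1.31 (SE 0.12, edgeR adjusted p = 2.86e-08) at 300 nM. HOXA9, a posterior gene best known for its part in leukaemia, read 62.2 and 64.5 CPM with DMSO, 32.4 and 34.7 at 100 nM, then 26.1 and 28.98 at 300 nM. Its 3 groups did not overlap, and its log2 change was -0.92 (SE 0.12, edgeR adjusted p = 5.63e-06) at 100 nM and -1.20 (SE 0.12, edgeR adjusted p = 9.17e-08) at 300 nM. Between the doses the difference of -0.29 missed the threshold (edgeR adjusted p = 0.0557).

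HOXA2, which patterns the hindbrain and the neural crest of the hyoid arch, fell stepwise. Its libraries held 15.4 and 15.5 CPM with DMSO, 8.41 and 7.92 at 100 nM, then 5.91 and 6.23 at 300 nM. No groups overlapped, and the log2 change was -0.92 (SE 0.14) and then -1.35 (SE 0.14), with edgeR adjusted p = 4.19e-05 and 2.56e-07. HOXA11, one of the paralogues that the embryonic kidney needs, was the gene of the cluster that rose at both doses, with 3.81 and 3.56 CPM with DMSO, 9.08 and 8.77 at 100 nM, then 12.9 and 11.2 at 300 nM. The groups again lay apart, at 2.42-fold the DMSO level at 100 nM and 3.27-fold at 300 nM (log2 changes 1.28, SE 0.15, and 1.71, SE 0.15, with edgeR adjusted p = 3.16e-06 and 3.51e-08). The log2 changes were smaller with the length and GC offset, at 0.76 and 0.67, and still called. Some 69.4% of its exon bases are free of other genes, the rest being shared with HOXA11-AS on the opposite strand, which was itself not called, at 0.38 on the log2 scale at 300 nM. HOXA13, a gene of the distal limb and the urogenital tract, differed from its neighbours in that it was called at 300 nM and not at 100 nM, with 2.41 and 2.31 CPM, then 2.06 and 2.39, then 0.749 and 1.30 CPM. Only the 300 nM libraries lay below the others, and the difference between the doses was -1.11 (SE 0.26, edgeR adjusted p = 0.00252).

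HOXA10, a uterine and haematopoietic regulator, was lower by smaller amounts, with log2 changes of -0.50 and -0.36. HOXA5 was called lower at 300 nM (-0.35) and HOXA4 at 100 nM (-0.45). HOXA7 was called higher at 300 nM (log2 change 1.15, SE 0.46, edgeR adjusted p = 0.0378) at a low level, 0.229 and 0.330 CPM with DMSO, 0.581 and 0.584 at 100 nM, then 0.858 and 0.391 at 300 nM. Its 300 nM libraries were far apart, and 37.5% of its exon bases are free of other genes, so its value is uncertain. Without the first 300 nM library it was 0.49 and no longer called, and without the first DMSO library 0.91. HOXA10 at 300 nM lost its call without either DMSO library (-0.38 and -0.36), HOXA5 without either DMSO library or the second 300 nM library (-0.38 to -0.33), and HOXA4 at 100 nM without any 1 of the 4 libraries compared (-0.58 to -0.31). The added steps of HOXA2 and HOXA11 from 100 to 300 nM were called too, at -0.43 and 0.43, but not without either 100 nM library or without the first 300 nM library (-0.48 to -0.39 for HOXA2, 0.33 to 0.44 for HOXA11). HOXA6 was not called without an offset, and with the exon length offset and the length and GC offset it was called lower at 100 nM (-0.87 and -1.04) and at 300 nM (-1.04 and -1.51).

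HOXB held genes called in opposite directions side by side. At 100 nM, 3 of the 9 genes tested were higher and 1 lower (33.3% and 11.1%, beside 24.0% and 18.7% of all genes). At 300 nM 5 were higher and 2 lower (55.6% and 22.2%, beside 34.8% and 31.1%). The split at 300 nM turned to 2 higher and 3 lower with the length offset and to 1 higher and 7 lower with the length and GC offset, HOXB13 being the 1 that stayed higher. As HOXB13 entered the test only through treated libraries, it could not be called lower, and it is part of all these higher counts. HOXB7, the gene with the highest level per kilobase in the family over all libraries, read 31.1 and 29.2 CPM with DMSO, 37.3 and 36.2 at 100 nM, then 47.3 and 39.8 at 300 nM. The groups did not overlap, and the change was called at 300 nM (0.53, SE 0.12, edgeR adjusted p = 0.00109) and not at 100 nM (0.29, edgeR adjusted p = 0.0703). HOXB9, second in level, overlapped between all groups, with 53.2 and 47.5, 49.6 and 55.2, and 53.5 and 51.6 CPM. Its log2 change without an offset was 0.06 at both doses with an SE of 0.11. The length offset called HOXB9 lower at 300 nM (-0.50), and the length and GC offset called it lower at 100 nM (-0.43) and 300 nM (-0.94).

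HOXB2, a hindbrain gene that acts downstream of other HOX factors, held 24.7 and 25.1 CPM with DMSO, 35.4 and 34.2 at 100 nM, then 40.8 and 38.7 at 300 nM. HOXB4, known for expanding blood stem cells, held 18.8 and 16.9, then 28.1 and 24.7, then 30.4 and 27.1 CPM. In both genes every treated library was above both DMSO libraries. Their log2 changes were 0.48 (SE 0.12) and 0.56 (SE 0.13) at 100 nM and 0.67 (SE 0.12) and 0.69 (SE 0.13) at 300 nM, with edgeR adjusted p = 7.11e-05 and 0.000188 at 300 nM. With the length and GC offset the 300 nM values were -0.42 for HOXB2, -0.34 for HOXB7 and -0.10 for HOXB4. HOXB5, between HOXB4 and HOXB6, was lower at both doses, though by less than 2-fold, with 10.5 and 10.8 CPM with DMSO, 6.18 and 5.95 at 100 nM, then 6.04 and 6.50 at 300 nM. Its treated libraries lay below both DMSO libraries and the doses overlapped (log2 changes -0.81 and -0.76, SE 0.15 for each, edgeR adjusted p = 0.00025 and 0.000223).

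HOXB3 held 29.8 and 29.7 CPM with DMSO and 26.8 and 27.0 at 100 nM, a difference that was not called, and 18.8 and 20.1 at 300 nM. The 300 nM libraries were below all others (-0.61, SE 0.12, edgeR adjusted p = 0.000256). HOXB3, with 7456 exon bases, is the longest HOX gene. With the exon length offset its 300 nM value was -0.20 and not called, and with the length and GC offset it was -0.87 and called lower (edgeR adjusted p = 3.92e-07). HOXB6 was called higher at 300 nM (0.37, edgeR adjusted p = 0.0175). That call was lost without the second DMSO library (0.28) or the first 300 nM library (0.30), and at 100 nM the calls of HOXB2 and HOXB4 were lost without the first (0.47) and the second (0.49) DMSO library. HOXB8 was not called without an offset. Both offsets called it lower at 100 and 300 nM, at -0.57 and -0.62 with the length offset and -0.75 and -1.08 with the length and GC offset.

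HOXB13, the far posterior gene of the cluster and a prostate lineage factor, went from near silence to a low level. Its libraries had 2 and 0 reads in DMSO-treated cells, 58 and 56 at 100 nM and 186 and 204 at 300 nM, or 0.591 and 0.606 CPM at 100 nM and 2.25 and 2.15 CPM at 300 nM. The 3 groups lay far apart. Its direction against DMSO was fixed, since it entered the test only through treated libraries. The ratio to DMSO was 56.9 at 100 nM (95% counting interval 15.4 to 475.3) and 208.9 at 300 nM (57.5 to 1731), intervals that cover counting error only. The difference between the doses was 1.88 on the log2 scale (SE 0.32, edgeR adjusted p = 0.000176). None of its exons overlaps another gene.

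HOXC had the fewest calls. At 100 nM edgeR called 0 of its 7 tested genes higher and 1 lower (14.3%), beside 24.0% and 18.7% of all genes. DESeq2 gave the same, and HOXC4, the lower gene, was also the 1 gene with an unadjusted p under 0.05. At 300 nM 2 were higher and 1 lower (28.6% and 14.3%, beside 34.8% and 31.1% of all genes). With the length and GC offset, however, 6 of the 7 were lower at 300 nM and HOXC11 was not called. HOXC9, a gene of the thoracic level and the highest of the cluster per kilobase, held 8.22 and 8.69 CPM with DMSO, 9.62 and 7.98 at 100 nM, then 12.8 and 10.4 at 300 nM. The 100 nM libraries overlapped the DMSO libraries and the 300 nM libraries lay above both groups (0.45, SE 0.16, edgeR adjusted p = 0.0174). HOXC6, which marks the chest region of the trunk, held 14.8 and 15.5, then 18.9 and 17.5, then 20.7 and 17.7 CPM. Its treated libraries were above both DMSO libraries, with a call at 300 nM (0.34, SE 0.13, edgeR adjusted p = 0.0338) and none at 100 nM (0.26).

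HOXC4 was the lower gene, with 6.19 and 6.77 CPM with DMSO, 4.80 and 4.32 at 100 nM, then 4.14 and 4.22 at 300 nM. Its groups did not overlap (-0.51, SE 0.16, and -0.63, SE 0.16, with edgeR adjusted p = 0.0181 and 0.00274). HOXC4 and HOXC5 each share exons with a same-strand neighbour, as do HOXC6 and HOXC9, so their reads could not be told apart in full. The HOXC9 and HOXC6 calls at 300 nM were lost without either DMSO library or the first 300 nM library (0.30 to 0.49 for HOXC9, 0.23 to 0.37 for HOXC6), and the HOXC4 call at 100 nM without either DMSO library or the second 100 nM library (-0.57 to -0.43). HOXC9 also passed between the doses by a narrow margin (0.40), and not without the second 100 nM library (0.26) or the first 300 nM library (0.23). HOXC5, HOXC8, HOXC10 and HOXC11 were not called without an offset. With the length and GC offset HOXC5 (-2.05), HOXC8 (-0.83) and HOXC10 (-0.69) were called lower at 300 nM. HOXC12 had 4 reads, all in 1 library at 300 nM, and HOXC13 had 0 to 8 reads in every library.

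HOXD held large changes in both directions within a cluster of 98.0 kilobases. At 100 nM 2 of 9 genes were higher and 2 lower (22.2% each, beside 24.0% and 18.7% of all genes). At 300 nM 3 were higher and 2 lower (33.3% and 22.2%, beside 34.8% and 31.1%), or 1 and 5 with the length and GC offset. The 1 was HOXD13, which entered the test only through treated libraries and so could not be called lower. It is also part of the higher counts at both doses without an offset. HOXD10 and HOXD9, posterior genes of the lumbar cord and the limb, fell at each step. HOXD10 held 33.7 and 34.9 CPM with DMSO, 24.8 and 26.0 at 100 nM, then 11.6 and 13.3 at 300 nM. HOXD9 held 21.8 and 23.5, then 15.3 and 16.1, then 6.68 and 7.31 CPM. In both genes no groups overlapped, and both steps were called. Against DMSO, HOXD10 changed by -0.43 (SE 0.12) and -1.46 (SE 0.13) and HOXD9 by -0.53 (SE 0.13) and -1.69 (SE 0.14) on the log2 scale, with edgeR adjusted p = 2.37e-08 and 8.51e-09 at 300 nM. From 100 to 300 nM they changed by -1.03 and -1.17, more than from DMSO to 100 nM, although the difference between the steps was not tested.

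HOXD13, next along the chromosome after HOXD12 and the gene of the digits and the external genitalia, was silent with DMSO. Both DMSO libraries had 0 reads of it, against 10 and 12 at 100 nM and 68 and 87 at 300 nM, the last equal to 0.822 and 0.919 CPM. The level was at least 7.32-fold higher at 100 nM and at least 55.4-fold higher at 300 nM than the limit that 0 reads allow, set at 3 reads over the DMSO group. If mates of a read pair were counted apart, that limit is too low and these folds are too high. The log2 difference between the doses was 2.90, given without a test because its 10 and 12 reads at 100 nM let the gene pass the low-count filter only through the 300 nM libraries. No other gene overlaps its exons. HOXD11, a kidney gene like HOXA11, held 6.69 and 6.84 CPM with DMSO, 9.48 and 9.40 at 100 nM, then 9.21 and 9.57 at 300 nM. Every treated library was above both DMSO libraries and the doses overlapped (0.48 and 0.47, SE 0.14 for each, edgeR adjusted p = 0.0115 and 0.00794). HOXD11 shares exons with HOXD10, and with the length and GC offset its 300 nM value was -0.73 and called lower.

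HOXD1, at the far anterior end, held 1.02 and 0.904 CPM with DMSO, 1.14 and 1.37 at 100 nM, then 2.34 and 2.99 at 300 nM. The 300 nM libraries stood above the rest (1.47, SE 0.25, edgeR adjusted p = 5.91e-05), and the difference between the doses was 1.09. Only 41.9% of its exon bases are free of other genes, HAGLR on the opposite strand among them, and the call was lost with the length and GC offset (0.38). HOXD8, in the middle of the cluster and next to HOXD9, was not called at either dose, with log2 changes of -0.02 and 0.08. Some calls were lost when 1 library was left out, with log2 changes of much the same size. These were HOXD10 at 100 nM, lost without either DMSO library or the first 100 nM library (-0.46 to -0.38), HOXD9 at 100 nM, lost without the second DMSO library (-0.47), and HOXD11 at both doses, lost without either DMSO library (0.45 to 0.50). HOXD3, HOXD4 and HOXD12 were not called without an offset, and HOXD4 was called lower at 300 nM with the length and GC offset (-1.05).

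**Figure D4:**
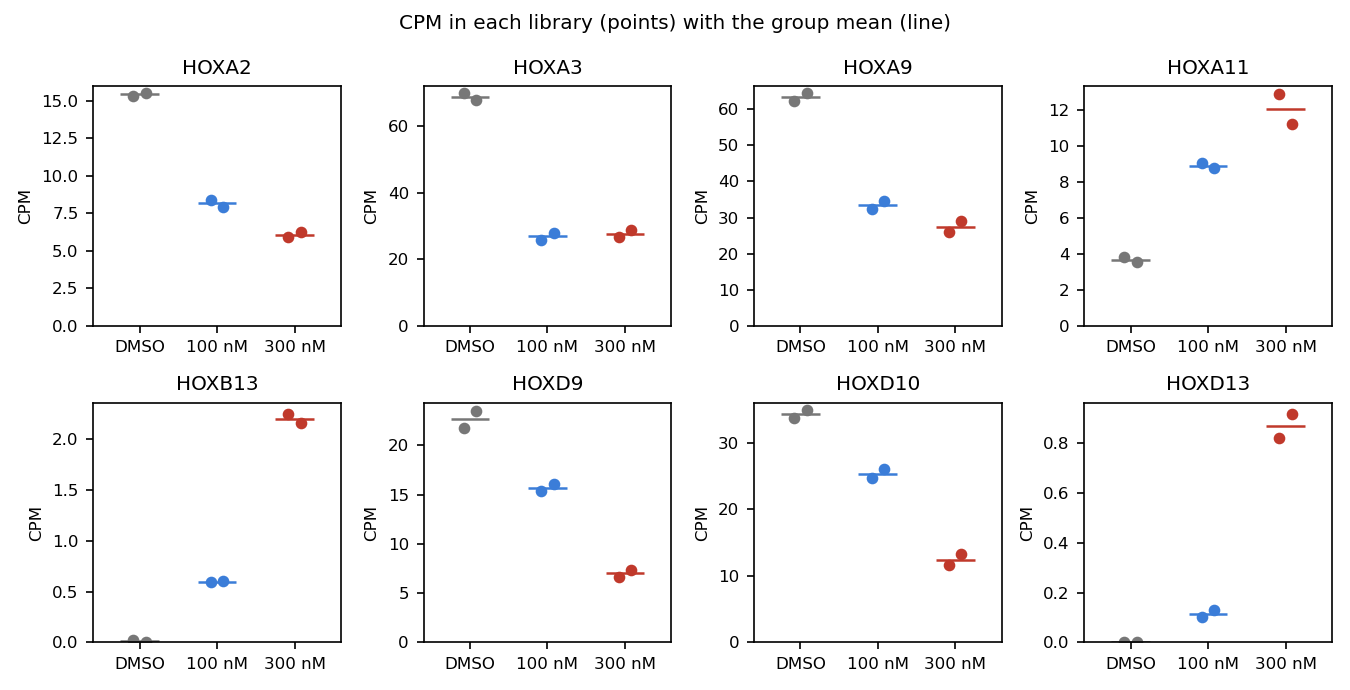
CPM in each library, on linear axes from 0, for 8 HOX genes whose calls at 300 nM held under every alternative, with the group mean as a line. HOXA3 overlaps between the doses, HOXD9 and HOXD10 fall most between 100 and 300 nM, and HOXB13 and HOXD13 climb from 0 to 2 reads with DMSO. At that DMSO level HOXB13 and HOXD13 could not be called lower under any alternative.

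**Figure D5:**
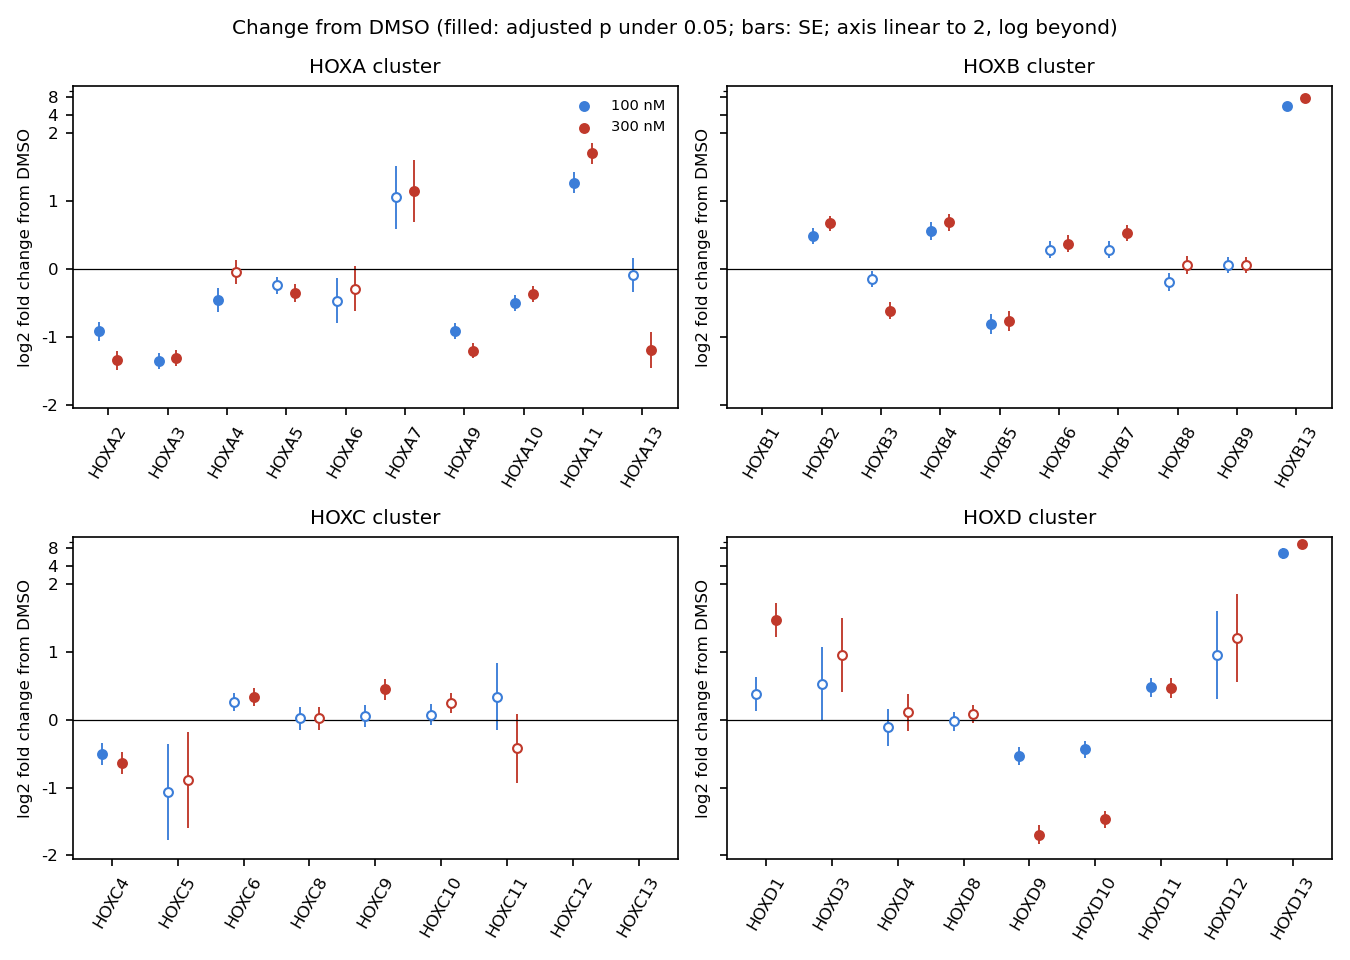
Log2 change from DMSO at 100 nM (blue) and 300 nM (red) for the HOX genes shown, in order of gene number, with the SE as a bar and filled points where the adjusted p was under 0.05. The axis is linear to 2 and logarithmic beyond, the values of HOXB13 and HOXD13 depend on the prior count and are no bounds, HOXB1, HOXC12 and HOXC13 have no points, and neighbours such as HOXA10 and HOXA11 or HOXB4 and HOXB5 lie on opposite sides of 0.

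Read by position along the axis without an offset, each region held genes called in both directions. At 300 nM, of 7 anterior genes (numbers 1 to 3) 2 were higher and 3 lower (28.6% and 42.9%). Of 15 central genes (4 to 8), 5 were higher and 3 lower (33.3% and 20%). Of 14 posterior genes (9 to 13), 5 were higher and 5 lower (35.7% each). Over all genes the shares were 34.8% and 31.1%. Under the length and GC offset, by contrast, 13 of the 15 central genes were called lower at 300 nM and HOXA7 and HOXB4 were not called. There 4 of the 7 anterior genes were lower, and of the posterior genes 3 were higher and 9 lower. Over all 23160 genes tested, that offset gave 7003 higher and 8524 lower at 300 nM, and 3290 and 5931 between the doses. Between 100 and 300 nM edgeR called 0 of the 15 central genes, beside 43.4% of all genes. Of the central genes 1 had an unadjusted p under 0.05 (HOXA4) and 1 was called by DESeq2 (HOXB7). Of the 14 posterior genes 4 were higher and 3 lower (28.6% and 21.4%, beside 20.0% and 23.4% of all genes). HOXD13 is among the 4, although it passed the low-count filter only through the 300 nM libraries and so could not be called lower between the doses. With the length offset HOXA5 was called lower between the doses (-0.44). Adding GC content to the offset raised this to 9 of the 15 central genes, namely HOXA5 (-0.45), HOXB4, HOXB5, HOXB6, HOXB8, HOXC4, HOXC6, HOXC8 and HOXD8, and whether the regions differed was not tested. Among the genes called at 300 nM without an offset, the lowest and highest changes were posterior. These were HOXD9 and HOXD10 on one side and HOXD13, HOXB13 and HOXA11 on the other. HOXB13 and HOXD13 entered the test only through their treated libraries, so their side was fixed beforehand. Both are part of the posterior counts and of the correlations that follow. Among the other called genes HOXA11 had the highest change (1.71). Over the 36 genes the 300 nM change had a Pearson r of 0.36 and a Spearman rho of 0.13 with the gene number, and -0.68 and -0.45 with the DMSO level on a log2 scale per kilobase, a description over genes that share libraries, and in the second case share the DMSO values themselves.

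Within groups of paralogues the calls without an offset were mixed as well. Of the genes numbered 13, HOXB13 and HOXD13 were higher and HOXA13 was lower at 300 nM. Of those numbered 9, HOXA9 and HOXD9 were lower, HOXC9 was higher and HOXB9 was not called. HOXA10 and HOXD10 were both lower, by -0.36 and -1.46, while HOXC10 was not called at 0.25. The kidney paralogues HOXA11 and HOXD11 were both higher, and HOXC11, at 0.193 to 0.581 CPM, was not called. HOXA5 and HOXB5 were both lower, whereas HOXA4 was not called, HOXB4 was higher and HOXC4 was lower at 300 nM. Several of these groups shared a direction at 300 nM once the length and GC offset was used. All 4 genes numbered 9 were then lower (HOXA9 -1.60, HOXB9 -0.94, HOXC9 -0.67 and HOXD9 -2.91), as were all 3 numbered 10 (HOXA10 -1.15, HOXC10 -0.69 and HOXD10 -1.95) and all 3 numbered 5, 6 and 8. The kidney paralogues parted under that offset, HOXA11 staying higher (0.67) and HOXD11 being lower (-0.73, edgeR adjusted p = 0.000147), and HOXA13 stayed opposite to HOXB13 and HOXD13. The side of HOXB13 and HOXD13 was fixed beforehand, since they entered the test only through treated libraries.

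Reads from overlapping genes bear on these values, since the recorded counting command set no strand option. Of the 39 genes, 25 share exon bases with another gene and 19 with a gene on the opposite strand. HOXA7, HOXC5, HOXD1, HOXD3 and HOXD4 have under 50% of their exon bases to themselves and are the least certain. Among the 25 tested genes with 75% or more of their exons free of other genes, 8 were higher and 9 lower at 300 nM (32% and 36%). Among the 12 with all exons free, 3 and 3 were (25% each), beside 34.8% and 31.1% of all genes. Both sets hold HOXB13 and HOXD13, which could not be called lower.

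Among the non-coding RNAs of the clusters most of the calls were lower. Of 18 non-coding RNA genes of the HOX clusters, 17 were tested, 1 higher and 6 lower at 100 nM and 0 higher and 8 lower at 300 nM (edgeR, also with DESeq2 size factors), the 8 being all that had an unadjusted p under 0.05 at 300 nM, with a median of -0.22 against 0.05 over all genes. The lower calls were 35.3% and 47.1% of the RNAs tested at 100 and 300 nM, beside 18.7% and 31.1% of all genes, while calls in either direction were 41.2% and 47.1%, beside 42.7% and 65.9%. HOTAIRM1, a regulatory RNA of the HOXA cluster, went from 11.1 and 9.98 CPM with DMSO to 5.43 and 5.35 at 100 nM and 2.51 and 3.34 at 300 nM (-1.84, SE 0.17, edgeR adjusted p = 6.56e-08). HOXA10-AS held 6.97 and 6.69, then 2.80 and 1.94, then 1.80 and 1.55 CPM (-2.03 at 300 nM). HOXB-AS3 held 13.6 and 13.2, then 8.62 and 8.53, then 4.39 and 5.47 CPM (-1.44), and HOXD-AS2 7.72 and 8.02, then 5.65 and 5.02, then 2.50 and 2.92 CPM (-1.54). In these 4 RNAs no groups overlapped, and all 4 stayed lower under both offsets. They share exons with HOX genes on the other strand to varying extents, 37.7% of HOXA10-AS and 55.1% of HOTAIRM1 being free.

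Genes at the cluster borders moved both ways. Of 14 neighbours, 11 were tested, 5 higher and 4 lower at 100 nM and 5 and 6 at 300 nM, so that 81.8% and then all 11 were called, beside 42.7% and 65.9% of all genes. LNPK, which lies beyond HOXD13 and EVX2, went from 40.6 and 44.8 CPM with DMSO to 18.1 and 20.0 and then 7.76 and 9.03 CPM (-2.35 at 300 nM, SE 0.14, edgeR adjusted p = 1.49e-10), opposite to HOXD13. CBX5 and HNRNPA1 beside HOXC changed by -1.47 and -1.13 and SKAP2 beside HOXA by -1.24 at 300 nM, but with the length and GC offset CBX5 (-0.07) and SKAP2 (-0.01) were not called. On the HOXB13 side of HOXB, 2 genes chosen after their values were seen were higher along with HOXB13. PRAC1 had 0 reads with DMSO and at least 7.32-fold and 22.1-fold more at 100 and 300 nM, and TTLL6 had log2 changes of 2.45 and 2.70. PRAC1 could enter the test only through treated libraries, so it could not be called lower. EVX2 beside HOXD13 had 0 reads with DMSO, 12 at 100 nM and 4 at 300 nM, and was not tested.

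Cofactors and regulators of HOX genes were called in both directions. Over all genes 42.7% were called at 100 nM and 65.9% at 300 nM. Of the 9 TALE homeodomain cofactors (PBX, MEIS and PKNOX), 3 were higher and 2 lower at 100 nM (55.6% called) and 3 and 3 at 300 nM (66.7%), or 6 and 3 at 300 nM with the length and GC offset. MEIS3 went from 0.707 and 0.308 CPM with DMSO to 9.01 and 9.46 and then 12.8 and 11.7 CPM (4.58 at 300 nM, SE 0.25, edgeR adjusted p = 6.54e-11). PKNOX2 had 0 reads with DMSO and was at least 98.1-fold higher at 100 nM and 96.4-fold at 300 nM. With 0 DMSO reads it could enter the test only through treated libraries, so it could not be called lower. MEIS2 and PBX3, the more abundant cofactors, changed by -0.97 and -0.70 at 300 nM, and the MEIS2 value turned to 0.34, called higher, with the length and GC offset. Among the 8 ParaHox and EVX genes, homeobox relatives of HOX, only CDX1 reached the test, at least 5.65-fold and 12.1-fold above its 0 reads with DMSO. CDX1 too could do so only through treated libraries.

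Of 15 genes for retinoic acid handling and its receptors, 14 were tested, 5 higher and 3 lower at 100 nM (57.1% called) and 8 and 2 at 300 nM (71.4%, beside 65.9% of all genes). With the length and GC offset the split at 300 nM was 6 and 5. ALDH1A1, an enzyme that makes retinoic acid, fell from 121.7 and 128.5 CPM with DMSO to 20.5 and 22.2 and then 11.0 and 11.5 CPM (-3.48 at 300 nM, SE 0.12, edgeR adjusted p = 2.81e-13), while its relative ALDH1A3 rose (1.49). CRABP2, a carrier of retinoic acid, went from 3.65 and 4.71 CPM to 31.5 and 27.3 and then 54.0 and 42.7 CPM (3.53, SE 0.17). RXRG, with 2 reads with DMSO, stood at 27.3 times that level at 300 nM (95% counting interval 7.19 to 231.7). RXRG and CYP26C1, with 2 reads each over the DMSO libraries, could enter the test only through treated libraries, so they could not be called lower.

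A list of genes that keep HOX genes active held 14, from the trithorax group and beyond it. Of these, 1 was higher and 7 lower at 100 nM (57.1% called) and 2 and 7 at 300 nM (64.3%, near the 65.9% of all genes). The split at 300 nM was 5 and 5 with the length offset and 3 and 10 with the length and GC offset. ASH1L (-2.51), KMT2C (-2.20), PSIP1 (-1.93) and KMT2A (-1.71) led the falls at 300 nM, and all 4 stayed lower, at -1.54 to -0.80, with the length and GC offset. Of 23 Polycomb-group genes, which keep HOX genes silent, 5 were higher and 9 lower at 100 nM (60.9% called) and 8 and 10 at 300 nM (78.3%), and with that offset 6 and 14 at 300 nM. CXorf67, also called EZHIP, is counted among the 23, although it is an inhibitor of the complex that methylates lysine 27 of histone H3 and not itself a silencer. It had 0 reads with DMSO and was at least 74.5-fold higher at 100 nM and 615-fold at 300 nM. CXorf67 could enter the test only through treated libraries, so it could not be called lower. PHC2 was higher (1.70) and SUZ12 (-1.80) and PHC3 (-1.91) lower at 300 nM. With the length and GC offset PHC3 was not called, at 0.14, and SUZ12 was at -0.36.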

How the data were processed

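RNA counts per gene were deposited by the authors for 6 poly-A libraries. Per the file headers they are read counts from featureCounts 1.5.0-p3 on GENCODE 28, with the options -a and -o alone, so with no strand, pairing or multiple-overlap option. Alignment with STAR is named in the submitters' processing notes, which list hg19, whereas the coordinates in the files match GRCh38 (all 56933 genes with the same versioned ID in GENCODE 29). Of counts from 1 to 10, 70.05 to 74.37% were even. If mates of a pair were counted apart, counting intervals are too narrow. The authors also deposited a log2 matrix, used as an alternative. Names came from GENCODE 29 (58261 of 58381 genes).

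Counts were tested with edgeR 4.0.16 (R 4.3.3) by the quasi-likelihood test, with TMM scaling, filterByExpr (23160 genes), all 6 libraries in 1 fit with group as the term (3 residual degrees of freedom, biological coefficient of variation 11.8%), two-sided, and Benjamini-Hochberg adjustment over all genes tested. SEs were derived from the F statistic. The script was tested on simulated data. Alternatives were DESeq2 1.42.0 and its size factors, limma 3.58.1 with voom and on the log2 matrix, no scaling, no filter, offsets fitted per library as splines of exon length and GC content, a replicate block, only the groups compared, at least 2-fold, and each library left out.

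Counts, sums and medians cover all members, but 1 member and 1 listed marker are not reported individually here, and the marker is left out of its list. The genes and lists were chosen with earlier results of these data known. Values in every library are given for the 2 highest genes of each cluster per kilobase, up to 3 called genes with the highest and 3 with the lowest 300 nM change in each cluster, and called genes with 0 reads with DMSO. Up to 4 called genes per related list with the smallest adjusted p at 300 nM are named. HOXA13, TTLL6, PRAC1, EVX2, HOXA11-AS and PECAM1 were added after their values were seen.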

Additional observations from a re-analysis of the deposited data

How the results depend on the processing

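Of 1469 log2 changes recomputed under the alternatives, 1315 kept their side of the threshold, 75 lost a call, 38 gained one and 41 changed sign with a call on at least 1 side. All 41 arose with an offset for exon length or for length and GC, and the cause was not tested. Of the 1315, 92 were uncalled values that changed sign and stayed uncalled. With the length and GC offset, the values that turned negative were, at 100 nM, HOXB2 (-0.0504), HOXB6 (-0.21), HOXB9 (-0.43), HOXC8 (-0.43), HOXC9 (-0.51), HOXC10 (-0.41) and HOXD11 (-0.10), at 300 nM against DMSO, HOXB2 (-0.42), HOXB4 (-0.10), HOXB6 (-0.64), HOXB7 (-0.34), HOXB8 (-1.08), HOXB9 (-0.94), HOXC6 (-0.39), HOXC8 (-0.83), HOXC9 (-0.67), HOXC10 (-0.69), HOXD4 (-1.05), HOXD8 (-1.0) and HOXD11 (-0.73), and between the doses, HOXA3 (-0.41), HOXA10 (-0.30), HOXA11 (-0.0896), HOXB2 (-0.37), HOXB4 (-0.32), HOXB5 (-0.46), HOXB6 (-0.43), HOXB8 (-0.33), HOXB9 (-0.52), HOXC6 (-0.33), HOXC9 (-0.16) and HOXD8 (-0.47). With the length offset alone they were, at 300 nM, HOXB6 (-0.18), HOXB7 (-0.22), HOXB8 (-0.62), HOXB9 (-0.50), HOXC8 (-0.68), HOXC9 (-0.28), HOXC10 (-0.37), HOXD8 (-0.46) and HOXD11 (-0.19).

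The HOX counts moved by over 1.5 times in these cases. Requiring at least 2-fold left 3 higher and 1 lower at 100 nM, 5 and 6 at 300 nM and 3 and 3 between the doses (all genes 3689 and 1310, 4970 and 4639, and 1387 and 2499, in place of 5564 and 4331, 8060 and 7203, and 4623 and 5431). The length offset gave 5 higher and 18 lower at 300 nM and 3 higher between the doses. The length and GC offset gave 19 lower at 100 nM, 3 higher and 26 lower at 300 nM, and 2 higher and 20 lower between the doses. No scaling, and a fit of only the 2 groups compared, each gave 3 higher between the doses. With 1 library left out the counts ran, for higher and lower, from 4 to 6 and 5 to 7 at 100 nM, 8 to 13 and 9 to 11 at 300 nM, and 3 to 6 and 4 to 6 between the doses. The 5 lower at 100 nM came without the second DMSO library, and the 3 higher between the doses without the second 100 nM or the first 300 nM library. A lone library was then assumed to vary like the other groups. Over all genes, 2883 in place of 4331 were lower at 100 nM without the first 100 nM library, and 2896 in place of 4623 higher between the doses without the second 100 nM library. Between the doses 46.0% of all calls were higher, but 35.2% with no scaling and 35.7% with the length and GC offset, and the median of all genes went from -0.04 to -0.16 with no scaling.

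Libraries with the same replicate number shared little deviation over genes (correlations of 0.020, 0.0075 and 0.075). Such correlations cannot exclude a pairing, and the labels do not say whether the numbers pair libraries. A fit with the replicate number as a block gave 9 higher and 9 lower at 100 nM, 12 and 11 at 300 nM, and 7 and 6 between the doses. With levels taken per kilobase of exon that no other gene overlaps, HOXB7 and HOXB9 still ranked 1 and 2 over all libraries, and HOXA9 ranked 3 in place of 4. Genes below about 1 CPM, HOXA7, HOXC5, HOXC11, HOXD3 and HOXD12 among them, had the widest errors, and their differences may be missed at this depth.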
